A study of Mus musculus with 12 samples.

Results

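The matrix metalloproteinases (MMPs) described here are Mmp2, Mmp3, Mmp10, Mmp12, Mmp13, Mmp14 and Mmp19, together with Timp1, Timp2 and Timp3, which encode tissue inhibitors of metalloproteinases (TIMPs). These 10 genes were taken by name, out of 18194 genes that had a probe set of their own on the array. They were chosen with earlier results of these data known. In all 22 probe sets were paired with 1 of them alone, and for each gene the set of highest mean signal over the 12 arrays stood for it while the others served as a check. The cords came from female C57BL/6 (in the methods C57BL/6J) mice in 4 groups of 3: young intact (2 to 3 months old, naive), aged intact (15 to 18 months old, naive), young injured and aged injured. The injured cords were dissected at the Th9 level 9 days after a contusion by an impactor at that level, done after laminectomy. The methods describe no sham operation for the intact mice, so the injury cannot be told apart from the surgery. Each mouse gave 1 GeneChip array, and the values are MAS 5.0 signals, a linear brightness scaled so that the trimmed mean of every array is 100.

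MMPs are zinc-dependent proteases that cleave collagens, laminins, elastin and proteoglycans of the extracellular matrix, as well as growth factors and receptors at the cell surface. Most are secreted as inactive proenzymes and work only after the propeptide is removed, and TIMPs bind the active site and block it. In injured spinal cord the family is known for its part in opening the barrier between blood and cord, in the entry of leukocytes and in the later remodelling of the scar. The array measures mRNA, so neither the activation of a proenzyme nor its inhibition can be read from these values.

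After SCI, all 7 MMPs and all 3 TIMPs had higher mean signals than in intact cord of the same age. Mmp12, the macrophage elastase, went from a mean signal of 1.23 to 440 ± 125 in young mice and from 8.23 to 2078 ± 575 in aged mice (SD, n = 3). Fewer of the genes differed between the ages after SCI. Timp3, the inhibitor that stays bound to the matrix, was lower in aged injured cord. Mmp10, a stromelysin, was called higher there, but it was tested only because its mean passed the limit described next in that group, and the call held in 2 of 11 fits without 1 array. A signal of 50 was used as the limit below which a level was not relied on. The 10511 genes with a mean above it in at least 1 group were fitted with limma on the log2 scale, and a gene is called at a Benjamini-Hochberg adjusted p under 0.05 over all of them. In this fit 9 of the 10 genes were called higher with injury in young mice, where 33.9% of all genes tested were called higher, and 9 in aged mice, where 35.6% were. Mmp19 was not tested because its mean stayed under 50 in every group. Of the other 9, Mmp3, Mmp10, Mmp12 and Timp1 passed the limit in an injured group only, so a rise was needed for them to be tested, and these counts are a description. For all 10 genes the 3 injured arrays lay above the 3 intact arrays of the same age, which held in that direction for 37.5% of all genes tested in young and 36.7% in aged mice. Folds are ratios of group means. Where a mean lies under 50 it is set to 50 and the fold is given as "at least", and its fitted log2 value should not be turned into a fold.

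**Figure D1:**
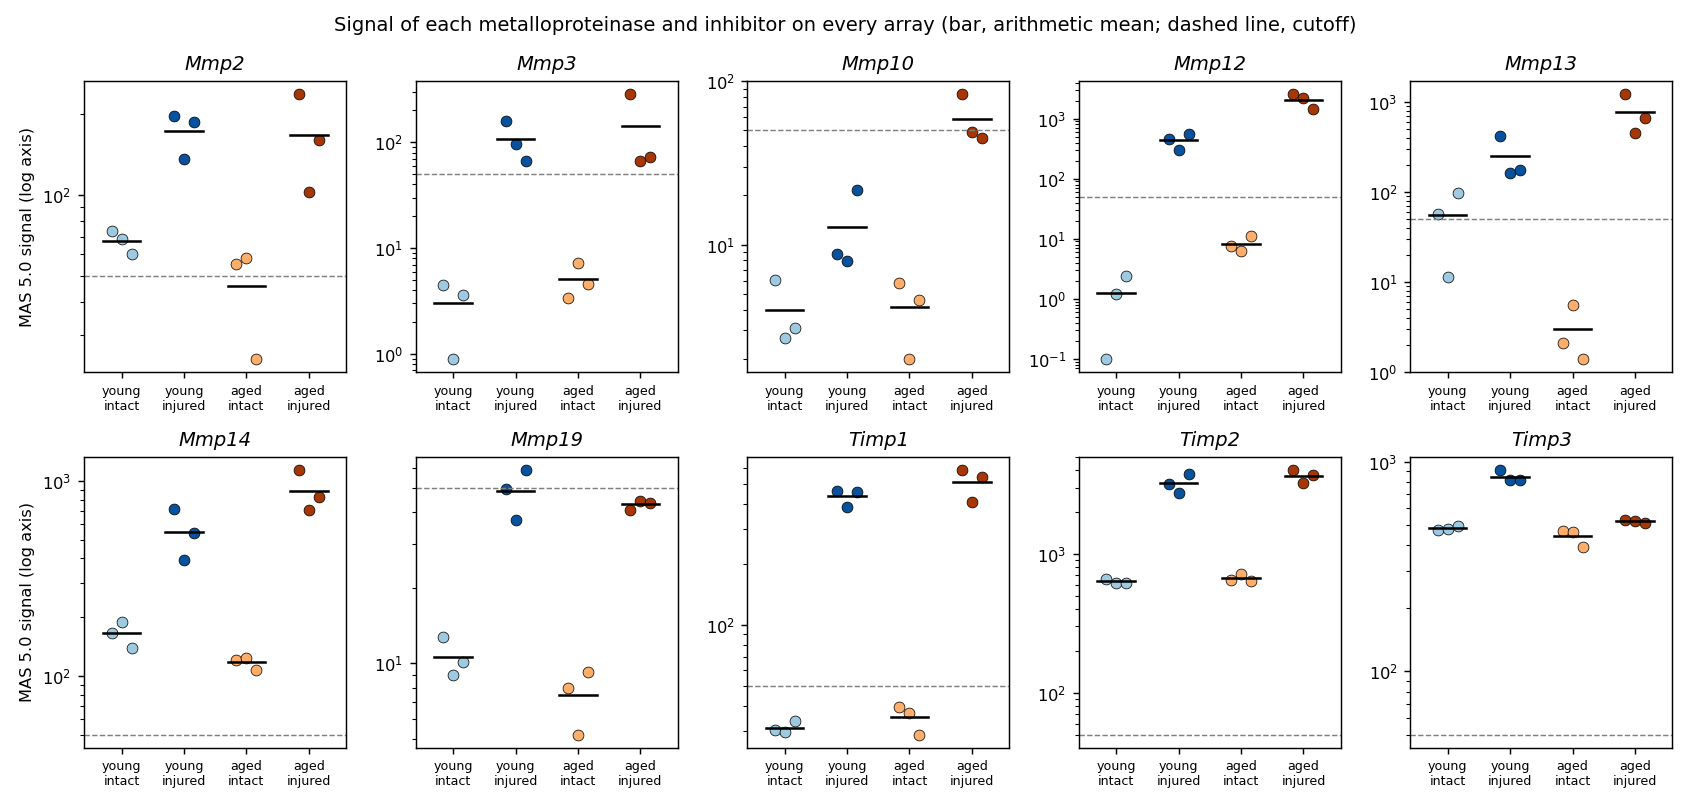
Signal of each gene on all 12 arrays, by group, on a log axis that differs between panels; points are mice, black bars arithmetic group means (n = 3) and the dashed line the limit of 50. For every gene the injured arrays of an age lie above the intact arrays of that age, and Timp3 is the gene whose aged injured points (509.7 to 528.3) fall well short of the young injured points (817.6 to 914.7).

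In intact cord the summed signal of 8 neuron markers was 17984 to 18846 over the 6 arrays, and among them only Chat, which marks motor neurons, stayed under 50 in both ages. With injury the summed signal of 12 markers of macrophages and microglia rose from 2655 to 2929 up to 22907 to 30007 in young mice, and from 5009 to 5190 up to 29902 to 35634 in aged mice. Of these 12 genes, 11 were tested and all 11 were called higher with injury in both ages, while the group means of the scavenger receptor gene Cd163 stayed under 50. Of all genes tested 33.9% were called higher in young and 35.6% in aged mice. Itgam, Msr1 and Mrc1 passed 50 in injured cord only, so a rise was needed for them to be tested. The summed signal of 9 fibroblast and meningeal markers went from 4740 to 5299 up to 13011 to 17567 in young mice and from 3388 to 4923 up to 11653 to 15783 in aged mice. Of 9 neutrophil markers 7 had a probe, and their summed signal went from 516.1 to 810 up to 1029 to 2195 in young mice and from 140 to 1477 up to 738.1 to 3936 in aged mice, where the groups overlapped. Mpo, Elane and Cxcr2 stayed under 50 on every array, and of the other 4 limma called S100a8 higher in aged mice (lost in 7 of the 12 fits without 1 array) and 0 in young mice (0 also at an unadjusted p under 0.05). Aged injured replicate 1 stood apart, with a summed neuron signal of 1237 against 8976 and 5721 in the other aged injured cords and 6289 to 9608 in young injured cords. A segment mixes all of these cells, so a change in the number of cells that express a gene cannot be told apart from a change in RNA per cell, and the part of the marker shifts in the MMP and TIMP values was not tested.

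Mmp12 degrades elastin and is made mainly by macrophages. Its signals were 0.1, 1.2 and 2.4 on the young intact arrays and 463.9, 304.6 and 550.5 on the young injured arrays. In aged mice they were 7.5, 6.3 and 10.9 before and 2549.8, 2246.6 and 1437.7 after injury. The 3 aged injured cords all lay above the 3 young injured cords, as they did for 14.0% of all genes tested. Injury raised Mmp12 at least 8.79-fold in young mice (adjusted p = 7.12e-06) and at least 41.6-fold in aged mice (adjusted p = 1.55e-05). The ratio of aged to young injured means was 4.73, but on the log2 scale the difference of 2.24 (standard error 0.89) did not pass the test (adjusted p = 0.122). That outcome changed when the near-zero intact values had less weight: with log2(signal + 16), which shrinks low signals, the adjusted p was 9.61e-04 (6.21% of all genes tested were called higher), and without young intact replicate 1, the array at 0.1, it was 0.0136. Whether injury changed Mmp12 differently in the 2 ages could not be settled, as the difference between the log2 changes was -1.36 (adjusted p = 0.580) and turned to 1.71 (adjusted p = 0.0429) with log2(signal + 16), where 0.228% of all genes were called for a larger value in aged mice.

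Mmp13, collagenase 3, which cleaves fibrillar collagen, had higher signals in young than in aged mice before injury. Young intact cords gave 57.2, 11.3 and 97.1, and young injured cords 414.8, 162.7 and 176.4. Aged intact cords gave 2.1, 5.5 and 1.4, all below the lowest young intact cord (a pattern of 11.2% of all genes tested). Aged injured cords gave 1217.3, 446.4 and 663.9, all above the highest young injured cord (a pattern of 14.0% of all genes tested). The order of the ages was therefore opposite in intact and injured cord. Injury raised Mmp13 4.55-fold in young mice (adjusted p = 0.0130), a call that was lost without young injured replicate 1 (adjusted p = 0.0561), and at least 15.5-fold in aged mice (adjusted p = 4.73e-06). In intact cord the lower level in aged mice passed the test narrowly, at least 1.10-fold lower with an adjusted p of 0.0410. This call was lost in 9 of the 12 fits that left out 1 array, whose adjusted p ran from 0.00905 to 0.184, and with log2(signal + 16) (adjusted p = 0.275). In injured cord the mean of aged mice was 776 ± 398 and that of young mice 251 ± 142 (SD, n = 3), a ratio of 3.09 that did not pass (adjusted p = 0.175). The difference between the ages in the log2 change with injury was 5.61 (standard error 1.08, adjusted p = 0.0594), and it was called in 5 of 21 alternative fits.

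Mmp3 and Mmp10 encode the stromelysins, which cleave proteoglycans, laminin and other MMP proenzymes. Mmp3 had signals of 4.5, 0.9 and 3.6 in young intact and 160.1, 96.5 and 66.9 in young injured cord. In aged mice it had 3.4, 7.3 and 4.6 before and 284.5, 67.0 and 72.9 after injury. Injured and intact cords did not overlap in either age, while the injured cords of the 2 ages did overlap. The change with injury was at least 2.16-fold in young mice (adjusted p = 6.81e-05) and at least 2.83-fold in aged mice (adjusted p = 1.52e-04). Between the ages the injured levels differed by 0.14 on the log2 scale, with a 95% interval of -1.40 to 1.68, and this small difference turned to -0.53 without aged injured replicate 1.

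Mmp10 stayed near the floor of the array in 3 of the 4 groups. Its signals were 6.1, 2.7 and 3.1 in young intact, 5.8, 2.0 and 4.6 in aged intact and 8.8, 7.9 and 21.7 in young injured cord. Aged injured cords gave 83.2, 48.9 and 44.7, all above every other array. Aged injured cord was called higher than young injured cord, at least 1.18-fold (adjusted p = 0.0449), in a comparison where 4.41% of all genes tested were called higher. Mmp10 had a mean above 50 in aged injured cord alone, so a high level there was needed for it to be tested and the call is a description. Of the 12 fits without 1 array, Mmp10 was tested in 11 and called in 2, with adjusted p from 0.0359 to 0.129. With injury it was called higher in both ages, at least 1.18-fold in aged mice (adjusted p = 1.97e-04). In young mice both means lay under 50, no fold is given, and the adjusted p of 0.0384 was lost in 4 of the 11 fits (0.108 and 0.0915 when young intact replicates 2 and 3 were left out, 0.157 for young injured replicate 3 and 0.0533 for aged injured replicate 3). Without aged injured replicate 1 the aged injured mean fell under 50 and Mmp10 was not tested.

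These 4 genes lie in 1 run of 10 MMP genes on mouse chromosome 9, in the order Mmp13, Mmp12, Mmp1b, Mmp3, Mmp1a, Mmp10, Mmp8, Mmp27, Mmp20 and Mmp7 in the RefSeq annotation, with 0 other protein coding genes among them. Of the 9 genes of the run with a probe, Mmp1a, Mmp1b, Mmp7 and Mmp20 stayed under 50 on every array, with a highest signal of 18.0. Mmp8, the neutrophil collagenase, was the other gene of the run that passed, through its injured groups only. Its signals went from 9.5, 11.3 and 15.1 to 56.9, 40.6 and 76.7 in young mice and from 3.8, 23.2 and 15.4 to 273.8, 167.8 and 153.3 in aged mice. Mmp8 was called higher with injury in young (at least 1.16-fold, adjusted p = 0.00420) and in aged mice (at least 3.97-fold, adjusted p = 6.00e-05). Its aged injured cords all lay above the young ones, as for 14.0% of all genes tested. The ratio of means was 3.42, which did not pass the test (adjusted p = 0.0681).

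**Figure D2:**
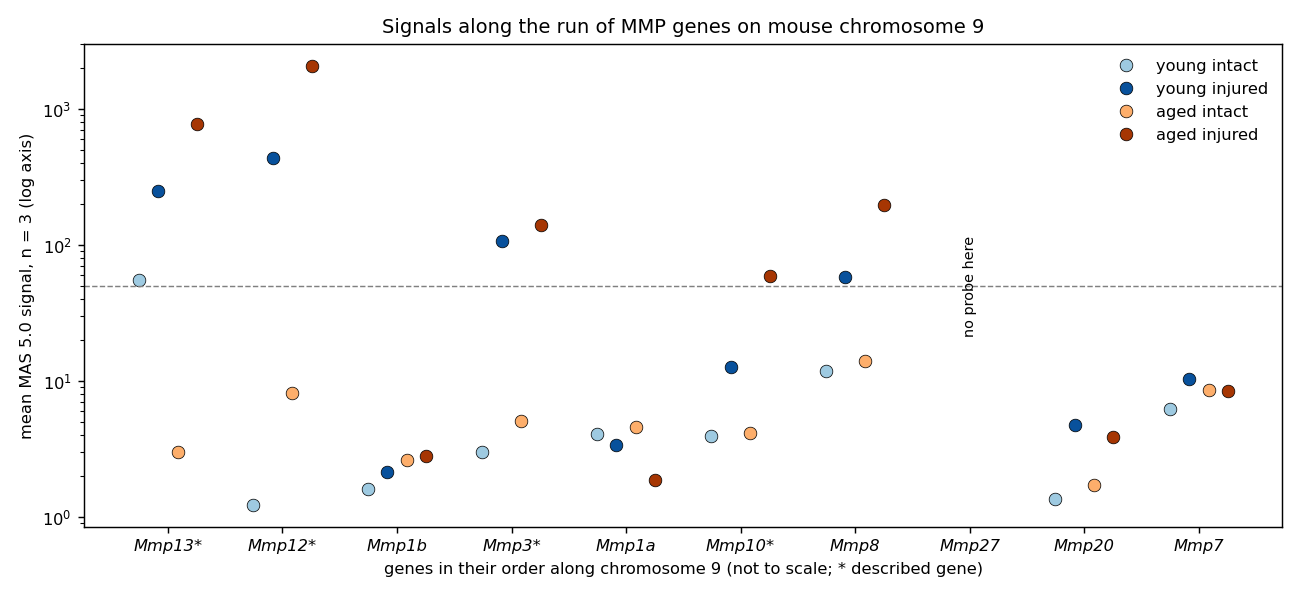
Group means (n = 3) of the MMP genes in their order along chromosome 9, on a log axis, with the limit of 50 dashed; spacing is not to scale and Mmp27 had no probe here. Within a gene the aged injured mean is the highest of the 4 for Mmp13, Mmp12, Mmp3, Mmp10 and Mmp8, whereas Mmp1b, Mmp1a, Mmp20 and Mmp7 stay at or below 18.0 on every array.

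The promoters of Mmp3, Mmp10, Mmp12 and Mmp13 are shown because these 4 genes lie in 1 run and were each called higher with injury in both ages. A further reason is that AP-1, the dimer of Fos and Jun proteins, is a known activator of stromelysin and collagenase genes. Mmp8 lies in the same run and was also called higher in both ages, but it is not among the 10 genes and its window was not looked up. The windows are RefSeq sequences (mouse build GRCm38.p6) of 300 bases, from 250 before the transcription start to 50 after it, on the plus strand at chr9:7445572-7445871 for Mmp3, chr9:7502092-7502391 for Mmp10, chr9:7347124-7347423 for the second of 2 listed starts of Mmp12 and chr9:7272264-7272563 for Mmp13. Capitals mark the letters TGANTCA, the AP-1 core with any base at N, which read the same way on both strands.
Mmp3: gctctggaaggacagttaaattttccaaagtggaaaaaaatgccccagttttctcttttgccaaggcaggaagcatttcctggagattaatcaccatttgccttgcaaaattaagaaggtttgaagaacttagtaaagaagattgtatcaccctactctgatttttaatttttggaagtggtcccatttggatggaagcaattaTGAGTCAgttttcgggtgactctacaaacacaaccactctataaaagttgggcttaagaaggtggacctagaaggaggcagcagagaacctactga
Mmp10: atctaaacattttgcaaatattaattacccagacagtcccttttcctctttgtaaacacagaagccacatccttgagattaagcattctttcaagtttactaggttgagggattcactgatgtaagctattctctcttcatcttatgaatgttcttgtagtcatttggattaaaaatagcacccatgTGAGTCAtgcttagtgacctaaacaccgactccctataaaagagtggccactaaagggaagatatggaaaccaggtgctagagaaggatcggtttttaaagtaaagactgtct
Mmp12: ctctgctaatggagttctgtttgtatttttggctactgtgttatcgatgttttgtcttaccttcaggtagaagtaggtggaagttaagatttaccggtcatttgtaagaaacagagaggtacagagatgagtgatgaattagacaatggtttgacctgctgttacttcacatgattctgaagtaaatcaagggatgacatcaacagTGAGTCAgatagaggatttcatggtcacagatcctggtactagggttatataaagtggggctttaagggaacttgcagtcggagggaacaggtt
Mmp13: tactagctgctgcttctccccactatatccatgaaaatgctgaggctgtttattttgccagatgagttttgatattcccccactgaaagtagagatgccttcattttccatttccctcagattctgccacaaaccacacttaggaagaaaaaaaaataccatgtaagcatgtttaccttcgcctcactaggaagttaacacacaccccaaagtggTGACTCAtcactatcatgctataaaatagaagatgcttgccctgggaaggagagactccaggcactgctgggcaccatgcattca
The motif starts 46 bases before the start site in Mmp3, 63 in Mmp10, 44 in Mmp12 and 35 in Mmp13. The letters TATAAA, searched on both strands, begin 29 bases before the start in Mmp10, 16 in Mmp13 and 7 in Mmp3, and 4 bases after the listed start in Mmp12. Of the 10 genes, 8 had a window in the RefSeq table (not Mmp2 and Mmp19), and the windows of Mmp14, Timp1, Timp2 and Timp3 and that of the first start of Mmp12 held neither set of letters. TGANTCA occurred in 7.81% of all 32851 windows, in 5.1% of those of genes tested here and in 6.49% of those of genes called higher with injury in both ages. TATAAA occurred in 13.6% of all windows. A match is a description of the sequence only.

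Mmp14 and Mmp2 form a pair in which the first, a protease anchored in the cell membrane (MT1-MMP), activates the proenzyme of the second, gelatinase A, with TIMP-2 as the link between them. Mmp14 had signals of 166.6, 189.6 and 138.5 in young intact and 121.0, 122.8 and 107.5 in aged intact cord. After injury it had 716.7, 391.8 and 537.5 in young and 1136.6, 709.5 and 824.2 in aged mice. The aged cords lay below the young ones before injury without overlap, as for 11.2% of all genes tested. After injury they lay above them with an overlap of 1 young value. Injury raised Mmp14 3.33-fold in young mice (log2 change 1.70, standard error 0.22, adjusted p = 6.42e-05) and 7.60-fold in aged mice (log2 change 2.90, standard error 0.22, adjusted p = 1.03e-06). In injured cord the aged level was 1.62-fold higher, which did not pass (adjusted p = 0.0652), and in intact cord 1.41-fold lower (adjusted p = 0.489). The log2 changes differed between the ages by 1.20 (95% interval 0.51 to 1.88, adjusted p = 0.123). Without aged injured replicate 2, both the higher level in aged injured cord (adjusted p = 0.0241) and this difference (adjusted p = 0.0406) were called, and without young injured replicate 1 the former was (adjusted p = 0.0495). The higher level was also called with array weights (adjusted p = 0.00283), the mean of all probe sets (0.0396) and the replicate number as a block (0.0487). The 2 other probe sets of Mmp14 gave log2 changes of 1.73 and 1.44 in young and 2.59 and 2.53 in aged mice. In injured cord 1 of them was called higher in aged mice (log2 difference 0.82, adjusted p = 0.0452) and the other was not (0.72, adjusted p = 0.0575).

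Mmp2, by contrast, reached similar injured levels in the 2 ages. Its signals rose from 73.1, 68.7 and 60.1 to 197.5, 136.6 and 186.9 in young mice (2.58-fold, adjusted p = 0.00545). In aged mice they rose from 55.3, 58.1 and 24.5 to 237.5, 102.9 and 159.7 (at least 3.33-fold, adjusted p = 5.29e-04). The injured groups overlapped, with a log2 difference between the ages of -0.12 and a 95% interval of -0.89 to 0.65. A second probe set of Mmp2 gave log2 changes of 2.31 in young and 2.16 in aged mice, against 1.35 and 1.88 for the main one.

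Mmp19, a protease of basement membrane proteins, gave 12.7, 9.0 and 10.1 in young intact and 49.5, 37.4 and 59.0 in young injured cord. In aged mice it gave 8.0, 5.2 and 9.2 before and 41.0, 44.5 and 43.4 after injury. Injured and intact cords did not overlap in either age, but only 1 of the 12 arrays was above 50 and no fold is given. When all 18194 genes were fitted without the limit on signal, Mmp19 was called higher with injury in young (adjusted p = 4.15e-05) and aged mice (adjusted p = 8.73e-06). In that fit 23.4% and 24.1% of all genes were called higher.

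**Figure D3:**
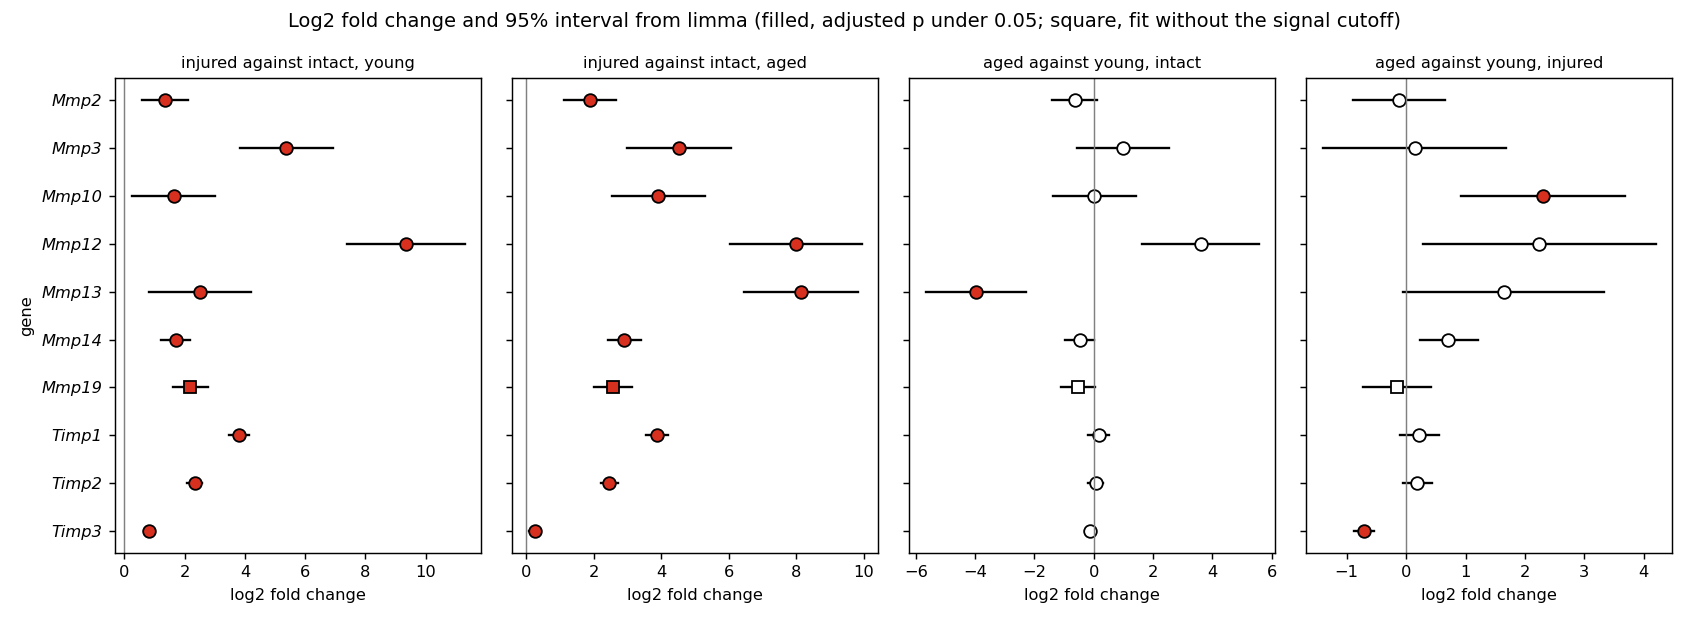
Log2 fold change with its 95% interval from limma for each gene in the 4 comparisons; filled symbols have an adjusted p under 0.05, and squares are from the fit without the limit on signal. All symbols lie right of 0 in both injury panels, whereas the age panels hold 1 call in intact cord (Mmp13) and 2 in injured cord (Mmp10 and Timp3).

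Timp1, the soluble inhibitor that is readily induced by inflammatory cytokines, rose to overlapping levels in the 2 ages. Its signals were 30.4, 29.5 and 33.4 in young intact and 462.2, 386.3 and 454.1 in young injured cord. In aged mice they were 39.2, 37.0 and 28.8 before and 586.4, 406.5 and 541.1 after injury. The rise was at least 8.68-fold in young (adjusted p = 1.25e-08) and at least 10.2-fold in aged mice (adjusted p = 1.24e-08). The log2 changes differed by 0.06, with a 95% interval of -0.41 to 0.54, and the injured levels by 0.22 with an interval of -0.11 to 0.56.

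Timp2 was called higher with injury in both ages at each probe set above 50, but the probe sets disagreed on the size. The set of highest mean signal gave 662.4, 621.5 and 619.3 in young intact, 643.9, 713.9 and 637.8 in aged intact, 3167.3, 2742.8 and 3772.5 in young injured and 4020.7, 3263.9 and 3673.9 in aged injured cord. These amount to a 5.09-fold rise in young (adjusted p = 4.22e-08) and a 5.49-fold rise in aged mice (adjusted p = 3.01e-08), or log2 changes of 2.34 and 2.45. The 4 other sets above 50 gave log2 changes of 0.48 to 0.57 in young and 0.45 to 0.76 in aged mice, each of them called. In intact cord the sets ranked 2 and 3 had higher means than the main set. These were 1212 and 1134 against 634 in young and 1289 and 1194 against 665 in aged mice. The main set ranked first through its injured signals, so the rise itself entered the choice of probe set. A sixth set stayed near the floor and was not called. No set passed the test between the ages after injury, and the main set gave a log2 difference of 0.19 with a 95% interval of -0.06 to 0.43.

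**Figure D4:**
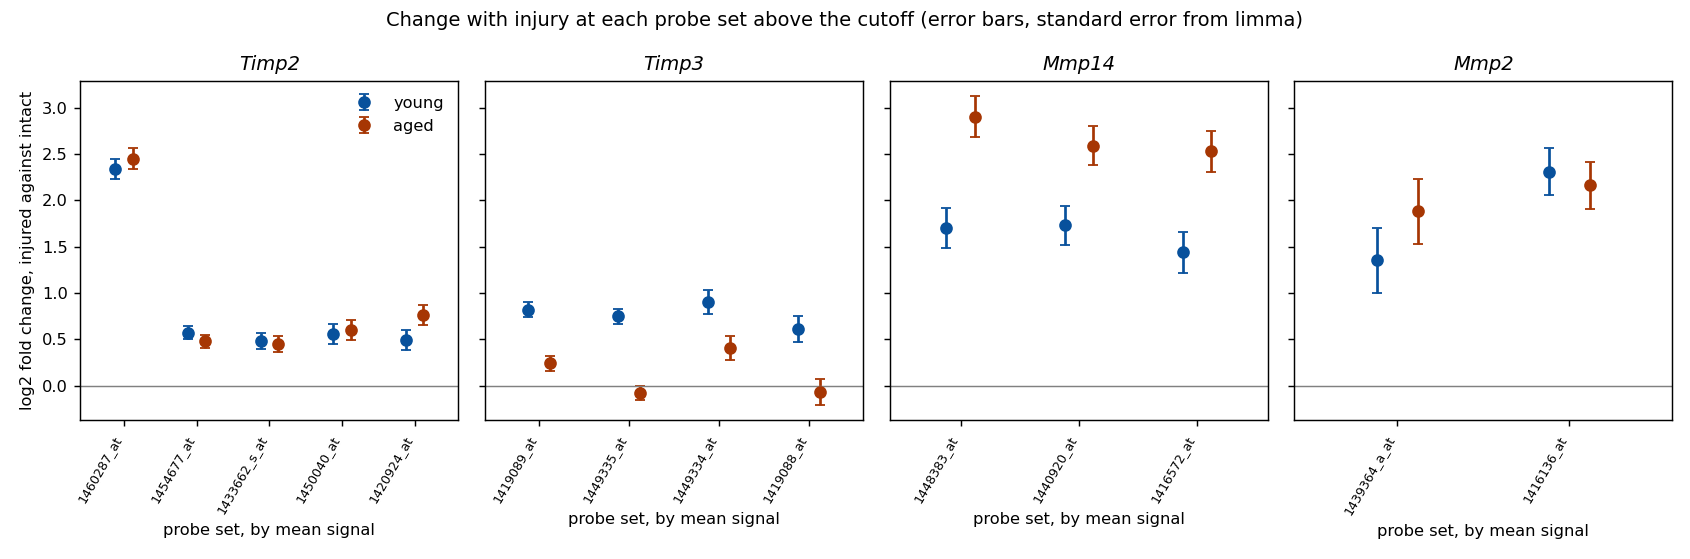
Log2 change with injury (points, estimate; bars, standard error from limma) in young and aged mice at every probe set above the limit of 50 for Timp2, Timp3, Mmp14 and Mmp2, ordered by mean signal. The first Timp2 set stands at 2.34 and 2.45 while its 4 others lie between 0.45 and 0.76, and at all 4 Timp3 sets the aged point is below the young one.

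Timp3, which also inhibits ADAM17 and ADAMTS proteases, was the gene for which the ages parted in the opposite direction from Mmp10. Its signals were 472.2, 477.6 and 494.9 in young intact and 914.7, 817.6 and 819.3 in young injured cord, a 1.77-fold rise (adjusted p = 6.95e-06). Aged cords gave 469.5, 463.6 and 392.7 before and 528.3, 523.1 and 509.7 after injury, a 1.18-fold rise (adjusted p = 0.0153). The rise in aged mice was not seen at all probe sets, since 2 of the 4 gave log2 changes of -0.08 and -0.07, and it was lost with the mean of all sets (adjusted p = 0.150) and without aged intact replicate 3 (adjusted p = 0.0683). In injured cord Timp3 was 1.63-fold lower in aged than in young mice (log2 difference -0.71, standard error 0.08, adjusted p = 0.00195), where 4.58% of all genes tested were called lower. The 3 aged injured arrays all lay below the 3 young ones, as for 14.1% of all genes tested. All 4 probe sets were called lower in aged injured cord, with log2 differences of -0.79 to -0.56, and so were all 12 fits without 1 array (adjusted p of 0.00139 to 0.0135). When limma was fitted to the 6 injured arrays by themselves, it called 0 of 9834 genes (1937 had an unadjusted p under 0.05), and Timp3 had an adjusted p of 0.0558. The difference between the ages in the change with injury was -0.58 on the log2 scale (95% interval -0.82 to -0.34, adjusted p = 0.0591). It was called in 8 of 21 alternative fits, among them those without aged injured replicates 1 (adjusted p = 0.0354) and 2 (0.0321) and without aged intact replicate 3 (0.0495), and at 1 other probe set (0.0230).

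By age, then, 1 of the 9 genes tested was called in intact cord (Mmp13, lower, where 0.266% of all genes tested were called lower) and 2 in injured cord (Timp3 lower, and Mmp10 higher, which was tested through that group alone, where 8.99% of all genes were called in either direction). None was called for a different change with injury between the ages, where 0.438% of all genes were, although 4 of the 9 had an unadjusted p under 0.05. By the cutoffs named in the methods, a mean signal above 50 and a ratio of means above 2, 3 of the 10 were higher in aged injured cord, Mmp10, Mmp12 and Mmp13, and 0 lower. By those cutoffs 1.39% of 9834 genes were higher. Without aged injured replicate 1, the cord with the low neuron markers, the ratios fell from 4.73 to 4.19 for Mmp12 and from 3.09 to 2.21 for Mmp13, and Mmp10 no longer had a mean above 50. Of the 12 arrays, that cord gave the highest signal of 6 of the 7 MMPs (all but Mmp19), of Timp1 and of Timp2, while its Timp3 signal was 528.3 against 523.1 and 509.7 in the other aged injured cords. In the same comparison, where 4.41% of all genes tested were called higher and 4.58% lower, markers of some cell types were also called. Of the 11 macrophage and microglia markers tested, 5 were called higher in aged injured cord (Cd68, Itgam, Adgre1, Lgals3 and Msr1) and 0 lower, a count that fell to 1 without young injured replicate 1. In the 12 fits without 1 array Msr1 was called in 12, Cd68 and Lgals3 in 9 each, Itgam in 7 and Adgre1 in 1. Of 7 astrocyte markers 3 were called lower in aged injured cord (Gfap, Aqp4 and Gja1, of which Gja1 was called in 12 of the 12 fits without 1 array, Aqp4 in 9 and Gfap in 3) and 0 higher. That count ran from 1 without young injured replicate 1 to 6 over the fits without 1 array. The summed astrocyte signal was 9236 to 15605 in aged and 17883 to 20359 in young injured cord. That of 5 oligodendrocyte markers was also lower in aged injured cord, at 13070 to 16942 against 17360 to 20195, although 0 of the 5 were called (0 to 4 lower without 1 array). In intact cord these sums were lower in aged mice too. They were 16050 to 16682 against 17224 to 17547 for astrocytes and 16363 to 17664 against 18455 to 19264 for oligodendrocytes, with 0 markers called. In aged injured replicates 1, 2 and 3 the astrocyte sums were 9236, 15605 and 14488, and the Timp3 signals 528.3, 523.1 and 509.7. The part of these shifts in the Timp3 difference was not tested. Of 9 fibroblast and meningeal markers Ogn was called lower, in 12 of the 12 fits. In intact cord 7 of the 11 macrophage and microglia markers, Cd68, Aif1, Csf1r, Lgals3, Ctss, Mpeg1 and C1qa, were higher in aged mice (5 without young intact replicate 1), where 0.542% of all genes tested were. For 5 of the 11 (Aif1, Lgals3, Ctss, Mpeg1 and C1qa) the change with injury was called smaller in aged mice. That count ran from 2 to 6 without 1 array, and 0.438% of all genes were called in either direction.

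Genes around the MMPs were followed through lists of their known partners. Genes named from a list have the largest fitted log2 changes among those called, and where a mean lies under 50 that size has no order. A gene that passed 50 only in groups where it was high was tested through that level, and its call is a description. Of 17 other genes of the family, MMPs and Timp4, 12 had a probe and 6 were tested, with median log2 changes of 0.48 in young and 0.64 in aged mice after injury, against -0.005 and -0.042 over all genes tested. Mmp8, Mmp11 and Mmp23 were called higher with injury in both ages, where 33.9% of all genes tested were called higher in young and 35.6% in aged mice. Mmp17, a membrane-anchored MMP, was called lower in both, where 34.1% and 39.9% of all genes were. Mmp8, Mmp11 and Mmp23 had means above 50 in injured cord only, and Mmp17 in young intact cord only (50.2). These calls are therefore a description. Timp4, an inhibitor common in nervous tissue, had signals of 870.5, 897.8 and 785.8 in young intact and 632.6, 648.3 and 716.9 in young injured cord, which did not pass (adjusted p = 0.121) unless aged injured replicate 1 was left out (adjusted p = 5.41e-04). In aged mice it went from 702.4, 744.3 and 706.0 to 303.7, 560.3 and 559.6 and was called 1.51-fold lower (adjusted p = 0.00920), so Timp4 did not share the direction of the 3 other inhibitors. Mmp9, gelatinase B, which is often described in the first days after SCI, had no group mean above 50, with signals of 16.3 to 49.0 over the 12 arrays.

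Of 22 regulators of MMP activity, 18 were tested, and 13 were called higher and 3 lower with injury in young mice (33.9% and 34.1% of all genes), with a median log2 change of 1.50. Those with the largest fitted changes in young mice were Lcn2, Plau, Thbs1, Cd44, Klk8 and A2m. The 3 lower genes were Spock1, Spock2 and Spock3, proteoglycans known from neurons. The Spock1 call in young mice (adjusted p = 0.0358) was lost in 6 of the 12 fits without 1 array. In aged mice 12 were higher and 3 lower (35.6% and 39.9% of all genes), the median was 1.74 and the largest fitted changes were those of Plau, Lcn2, Plaur, Klk8, Spock3 and Cd44. Plau, the urokinase that makes plasmin, which in turn cleaves MMP propeptides, had signals of 89.9, 70.4 and 113.5 in young injured and 465.5, 260.7 and 288.3 in aged injured cord, with 6.2 to 12.4 in intact cord of either age. It was called 3.70-fold higher in aged mice (adjusted p = 0.00719), together with its receptor gene Plaur (1.97-fold, adjusted p = 0.0358) and the protease gene Klk8 (1.63-fold, adjusted p = 0.0347). In the 12 fits without 1 array Plau was called in 12, Plaur in 5 and Klk8 in 4, and without young injured replicate 1 Plau alone was. Reck, a membrane-anchored inhibitor of MMPs, was called higher with injury in young mice (1.55-fold, adjusted p = 7.14e-04), while in aged mice its log2 change was 0.00 with a difference between the ages of -0.63 that did not pass (adjusted p = 0.124).

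Among 24 ADAM and ADAMTS proteases, 17 were tested, with 10 higher and 4 lower in young and 10 higher and 3 lower in aged mice after injury (median log2 changes of 0.72 and 0.65). Of all genes tested 33.9% were higher and 34.1% lower in young and 35.6% and 39.9% in aged mice. Among those called in both ages were Adam8, Adam12, Adamts12 and Adam17, which rose, and Adam23 and Adamts3, which fell. Adam8, a protease of leukocytes, rose at least 5.42-fold in young and at least 15.7-fold in aged mice, and after injury it was 2.89-fold higher in aged than in young mice (adjusted p = 0.0148). Adam17, the sheddase that Timp3 inhibits, rose 3.65-fold in young (adjusted p = 3.30e-06) and 6.19-fold in aged mice (adjusted p = 2.12e-07). Its levels in injured cord did not pass between the ages (ratio 1.42, adjusted p = 0.0708). Adam10, the sheddase related to it, was called higher in aged injured cord and Adamts10 and Adamts20 lower. In this comparison 4.41% of all genes tested were called higher and 4.58% lower. Adamts10 had a mean above 50 in young injured cord alone (62.8). A high level there was needed for it to be tested, so its call is a description. Adam8 and Adamts20 were called in 12 of the 12 fits without 1 array, Adam10 in 9 and Adamts10 in 8, both of which were lost without each of the 3 young injured replicates.

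Of 19 AP-1 factors and inducers, 9 were tested, and 7 were called higher and 1 lower in young mice and 6 higher in aged mice (median log2 changes of 1.00 and 1.13), against 33.9% higher and 34.1% lower of all genes tested in young and 35.6% higher in aged mice. Osmr, Fosl2, Ets1, Jun and Fos were called higher in both ages. So was Tgfb1, whose mean exceeded 50 in aged injured cord alone, so that a rise in aged mice was needed for it to be tested. Fos and Jun, the AP-1 subunits, rose 1.74-fold and 2.00-fold in young and 2.03-fold and 2.53-fold in aged mice. In injured cord Fos was 1.49-fold higher in aged than in young mice (adjusted p = 0.0260), at 509.8, 407.8 and 553.2 against 319.8, 303.7 and 366.2, and it was called in 9 of the 12 fits without 1 array (not without young injured replicates 1 and 2 or aged injured replicate 3). Etv5 was also called higher there (in 12 of the 12) and Jund lower (in 2), and in intact cord Osmr was called higher in aged mice (in 4). Of 20 matrix genes whose products MMPs cleave, 17 were tested, with 15 called higher and 1, Bcan, lower in each age (median log2 changes of 1.70 and 2.23), against 33.9% higher and 34.1% lower of all genes tested in young and 35.6% and 39.9% in aged mice. The largest fitted changes were those of Col4a1, Col3a1, Col1a1, Lamb1, Bgn and Col4a2 in young and Col1a1, Col3a1, Col4a1, Col1a2, Tnc and Fn1 in aged mice. Col3a1, a fibrillar collagen, rose 5.54-fold in young and 13.1-fold in aged mice to overlapping injured levels of 3328.0 to 4876.9 and 3628.7 to 4766.7. In intact cord Col1a1, Col1a2, Col3a1 and Nid1 were called lower in aged mice, a count that ran from 1 to 4 when 1 array was left out and was lowest without young intact replicate 1. In injured cord Bcan was called lower in aged mice, in 3 of the 12 fits without 1 array. Its lower call with injury in young mice (adjusted p = 0.0248) was lost in 4 of the 12.

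**Figure D5:**
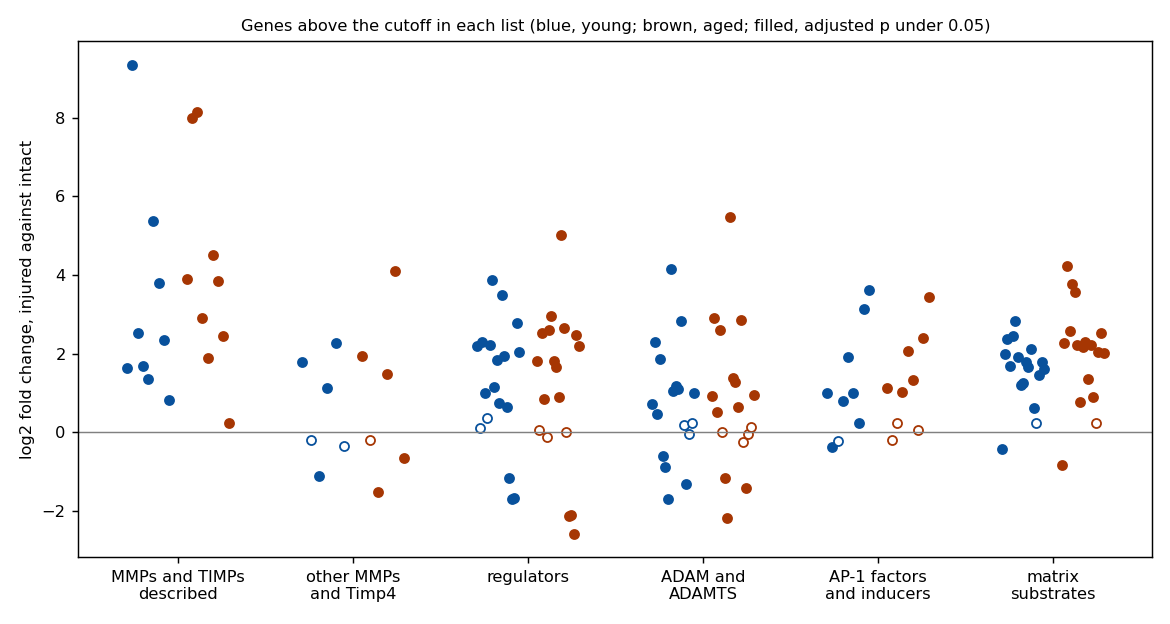
Log2 change with injury in young (blue) and aged (brown) mice for each gene tested in the MMP and TIMP group and in the 5 lists of partners; filled points have an adjusted p under 0.05. Regulators and ADAM or ADAMTS proteases hold points on both sides of 0, and 15 of 17 matrix substrates are filled above 0 in each age.

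The genes whose profile over the 12 arrays came closest to each of the 10 were found from the root mean square difference of log2 signals, each centred on its own mean, over all genes tested. For Timp2 they were Rnase4, Itpripl2 and Golm1, at 0.09 to 0.12 log2 units, for Timp1 Arhgap19, Mdfic and Ctsc (0.16 to 0.22), and for Timp3 Ltbp1, Pipox and Slc16a1 (each 0.12). Ltbp1, which binds latent TGF-beta in the matrix, thus had the pattern of Timp3, with means of 46.9 and 81.2 in young intact and injured cord and 44.3 and 53.7 in aged. For Mmp14 the nearest were Slc16a10, Ptgr1 and Rin3 (each 0.19), for Mmp2 Lama4, Loxl1 and Pdgfrl (0.25 to 0.30), which include a laminin chain and an enzyme that cross-links elastin, and for Mmp19 Kcne1l, Mia and Col4a5 (0.25 to 0.29). The genes with near-zero intact values had looser matches: Zranb3, Cep55 and Napsa for Mmp10 (0.49 to 0.56), Atf3, Cd72 and AI662270 for Mmp3 (0.63 to 0.70), Stra6l, Acp5 and Kcnn4 for Mmp13 (1.19 to 1.38) and Mcoln3, Gpnmb and Ly9 for Mmp12 (1.41 to 1.61). Acp5 encodes the acid phosphatase of osteoclasts and some macrophages, and Gpnmb a glycoprotein of lipid-laden macrophages. All 12 arrays entered both the choice and the measure, so these matches are a description.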

How the data were processed

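Total RNA of 12 spinal cord segments (4 groups of 3 mice) was hybridized to Affymetrix mouse GeneChip arrays. Per the labels and methods, MAS 5.0 subtracted the background and scaled the arrays, and the authors deposited the resulting linear intensity values for 45101 probe sets. The values were all above 0 (lowest 0.1), the trimmed mean was 100 on every array and the median 20.4 to 23.9. Raw images were not analysed here. Between 35.05% and 36.73% of probe sets exceeded 50 on an array. Precision is limited by the small number of arrays. Of the probe sets, 34958 were paired with 1 gene by the platform annotation, and those paired with several genes (932) or none (9211) were left out.

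Groups were taken from the labels. The p-values set a difference of group means against the spread between mice within the 4 groups. The labels do not say whether mice of 1 group shared a litter or a day of surgery. Any such shared part cannot be told apart from the group difference. The methods name no test across genes, only cutoffs on signal and ratio. The log2 signals of 10511 genes were fitted with limma 3.58.1 (R 4.3.3; lmFit and eBayes with trend, 4 group means over all 12 arrays), with Benjamini-Hochberg adjustment over all of them. The fit was tested on simulated data. The 10 genes, the lists of partners and the cell type markers were chosen with earlier results of these data known. All 10 genes are named in every comparison. From each list of partners the genes called are named, or the 6 of largest fitted change. The nearest 3 profiles are given for each gene. Reck, Mmp9, Spock1, Spock2, Bcan and the synapsin genes were named after their values were seen. Promoter windows, names and gene order came from RefSeq (GRCm38.p6). Alternatives changed the limit on signal, the scaling, the log scale, the spread model, array weights, the arrays in the fit, the probe set and the arrays left out, and 1 of them (no limit together with log2(signal + 16)) was chosen after seeing the data.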

Additional observations from a re-analysis of the deposited data

How the results depend on the processing

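Over 45 results of single genes and 1021 alternative values, 924 kept their direction and their side of the threshold, 39 lost a call, 30 gained one and 28 changed sign. The counts of genes changed with injury stayed within 8 to 10 higher and 0 lower in both ages. The counts by age did not hold. In intact cord, genes called lower numbered 0 with log2(signal + 16), with or without the limit on signal, 0 without a trend in the spread, 0 with the replicate number as a block, and 2 with array weights or only the arrays compared, and 0 to 1 without 1 array. Genes called higher numbered 1 with array weights and 0 to 1 without 1 array. In injured cord, genes called higher numbered 0 with a limit of 100 or only the arrays compared, 2 with log2(signal + 16) (both forms), 3 with array weights, 2 with the replicate block, and 0 to 2 without 1 array, and genes called lower 0 with only the arrays compared. Genes with a different change between the ages numbered 1 with a limit of 100, 2 with quantile normalization, 2 with log2(signal + 16), 3 with array weights, 1 with the mean of all probe sets, and 0 to 3 without 1 array. The cause of these shifts was not tested.

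Sign changes were met in log2 differences that were not called, apart from that of Timp3 with injury in aged mice, which was -0.07 and -0.08 at 2 other probe sets. For the age difference in intact cord they were -0.07 for Mmp10 with quantile normalization (-0.29 to 0.48 without 1 array), -0.08 and -0.02 at 2 probe sets of Timp2, and 0.08 and 0.04 at 2 of Timp3. In injured cord they were -0.42 to 0.18 for Mmp2 and -0.53 to 0.51 for Mmp3 without 1 array, -0.33 for Mmp3 with array weights, and -0.23 and -0.01 at 2 probe sets of Timp2. For the difference between the ages in the change they were -0.14 at the other probe set of Mmp2, 1.71 for Mmp12 with log2(signal + 16) (1.71 also without the limit; -2.29 to 0.00 without 1 array), -0.07 to 0.22 for Timp1 without 1 array, and for Timp2 -0.01 with the mean of all probe sets and -0.03, -0.35 and -0.10 at single sets.

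Of 18 pairs of arrays with the same replicate number, 2 had deviations that correlated above 0.1 (r of -0.113 to 0.667 over all 18). Both joined injured cords of the 2 ages, with r of 0.595 for replicate 1 and 0.667 for replicate 2, against 0.015 for replicate 3. Of the 12 arrays, 4 correlated best with an array of their own number. The labels do not say whether a number marks a shared condition, and the main fit left replicate numbers out. The median change of all genes lay between -0.062 and 0.004 on the log2 scale as deposited, with quantile normalization and with log2(signal + 16).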

Other observations

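Of the 4 inhibitor genes, 3 lie inside a synapsin gene in the RefSeq annotation, Timp1 in Syn1, Timp3 in Syn3 and Timp4 in Syn2. Synapsins coat synaptic vesicles in neurons, and their signals went the other way from Timp1 and Timp3 after injury. Syn1 had 179.5, 174.7 and 195.4 in young intact and 34.0, 71.3 and 52.7 in young injured cord, a 3.48-fold fall (limma, adjusted p = 2.36e-04). In aged mice it went from 137.0, 154.8 and 155.6 to 23.9, 54.0 and 37.9 (at least 2.98-fold lower, adjusted p = 9.36e-05). Syn3 fell 3.78-fold in young (adjusted p = 0.00386) and at least 4.65-fold in aged mice (adjusted p = 3.92e-04), and Syn2 fell 3.37-fold and 4.58-fold (adjusted p of 0.00577 and 5.47e-04). Timp4 was the one of the 4 inhibitors called lower with injury, in aged mice. Syn1, Syn2 and Syn3 had their lowest signals, 23.9, 45.1 and 13.4, on aged injured replicate 1, the cord with the least neuron signal. Whether the nested position bears on any of these values was not tested.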
